A study of Homo sapiens with 12 samples.

Results

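Fibroblast growth factors (FGFs) and their receptors were followed through 9 genes, which were FGF1, FGF2 and FGF5, FGF11 and FGF13, and the 4 receptor genes FGFR1, FGFR2, FGFR3 and FGFR4. They were 9 of the 58307 rows with a gene name in the count table, each found by an exact match of its symbol, and no symbol was repeated. FGF1 was chosen from earlier results of these same libraries, in which its count was lower with rapamycin in both cell lines, and the other 8 genes were taken as its family with those results known. Differences between etoposide + rapamycin and etoposide are therefore given for the 9 genes as a description, with no p-value. The cells were the human melanoma lines A375 and SK-MEL-28, which both carry an activating BRAF mutation. The topoisomerase II poison etoposide was given alone or together with rapamycin, an inhibitor of mTOR, so that etoposide was present in all 4 groups and no group was untreated. RNA was enriched for polyA and sequenced from 3 libraries per group, 12 in all, with 28190672 to 32499659 counts per library. The study describes its replicates as independent biological ones, and p-values measure the spread between them. The doses and times behind these libraries are not given in the sources used here.

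FGF1, FGF2 and FGF5 are secreted ligands that bind receptor tyrosine kinases at the cell surface together with heparan sulfate chains, and the receptors signal through the adaptor FRS2 to the ERK and PI3K pathways. FGF1 and FGF2 lack a signal peptide and leave the cell without passing through the Golgi. FGF11 and FGF13 belong to the FGF homologous factors, which share the fold of the ligands but stay inside the cell, where they bind voltage-gated sodium channels. FGF2 is a classical growth factor of cultured melanocytes, and melanoma cells are known to make it themselves.

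The label of the cells was checked against markers. SOX10, a regulator of the melanocyte lineage, had 5134 to 16540 counts per library, S100B had 1683 to 3504, and MITF had 361 to 946. The pigment cell genes MLANA, PMEL and TYR were low in both lines, with 11 to 42 counts of MLANA, 46 to 92 of PMEL and 0 to 6 of TYR. They were low in SK-MEL-28 as in A375. The markers TYRP1 and DCT were higher in SK-MEL-28. Under etoposide, TYRP1 had 42 to 55 counts in SK-MEL-28 and 12 to 22 in A375, and DCT had 42 to 61 and 17 to 24. With both drugs, TYRP1 had 34 to 43 counts in SK-MEL-28 and 11 to 16 in A375, and DCT had 40 to 67 and 6 to 7. Between the lines under etoposide, 13% of genes were called. These values cannot settle the identity of the lines, since no reference values of either line were used. Identity was not tested beyond these markers, so differences between the lines are differences between libraries labelled A375 and SK-MEL-28. Of 8 markers of other cells, 4 were near 0, with 0 to 18 counts of PTPRC (leukocytes), 0 to 16 of EPCAM and 0 to 8 of KRT5 (epithelium) and 0 to 28 of CDH5 (endothelium). The other 4 were not, with 117 to 884 counts of LUM and 26 to 195 of DCN (connective tissue), 138 to 305 of KRT14 (epithelium) and 39 to 186 of PECAM1 (endothelium).

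The 250 bases before a start of FGF1 and of FGF13 are shown, because of the members tested these were furthest below and above 0 when rapamycin was added in SK-MEL-28. They are RefSeq sequences of build GRCh38.p14, written 5′ to 3′ on the minus strand, for the first of 4 listed starts of FGF1 (chr5:142698071-142698320) and the first of 2 of FGF13 (chrX:139205024-139205273). Capitals mark matches on either strand to ACGTG (core of the hypoxia element), to GCGTG (its variant), to CACGTG (an E-box, which holds ACGTG), to TGACGT (a cAMP element) and to TATAAA (the core of a TATA box).
FGF1: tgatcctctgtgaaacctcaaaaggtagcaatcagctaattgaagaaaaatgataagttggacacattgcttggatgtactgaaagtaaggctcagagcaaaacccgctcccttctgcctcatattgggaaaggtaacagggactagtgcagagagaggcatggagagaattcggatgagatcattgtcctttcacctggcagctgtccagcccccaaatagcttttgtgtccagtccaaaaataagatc
FGF13: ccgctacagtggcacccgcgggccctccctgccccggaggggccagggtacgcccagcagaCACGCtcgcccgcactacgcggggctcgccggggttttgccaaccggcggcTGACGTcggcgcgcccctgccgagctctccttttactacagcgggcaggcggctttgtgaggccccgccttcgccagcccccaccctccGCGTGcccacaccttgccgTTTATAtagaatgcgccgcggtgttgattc
The FGF1 stretch held none of these letters and 44.8% G and C. The FGF13 stretch held 70.4% G and C, with 2 matches to GCGTG, 1 to TGACGT and 1 to TATAAA. Of 35116 promoter windows of the same length, 32.22% held GCGTG, 18.51% ACGTG, 7.1% TGACGT, 6.34% CACGTG and 10.72% TATAAA. A match is a description of the letters and not a bound site, and the counts per gene do not tell which start was used.

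FGF1 lies on chromosome 5 of GRCh38 (142592178 to 142698070, minus strand). In A375 it had 298, 294 and 282 counts with etoposide and 122, 135 and 136 with etoposide + rapamycin. In SK-MEL-28 it had 481, 415 and 541 counts with etoposide and 233, 189 and 217 with both drugs. All libraries with rapamycin were lower than all libraries of the same line without it. In CPM, which are counts scaled to a common library size with TMM normalization, the means were 9.88 ± 0.15 and 4.46 ± 0.16 (SD, n = 3) in A375. In SK-MEL-28 they were 15.3 ± 1.4 and 7.11 ± 0.39. FGF1 was thus 2.22-fold lower with rapamycin in A375 (log2 fold change -1.15 ± 0.12, SE) and 2.16-fold lower in SK-MEL-28 (-1.11 ± 0.11). The log2 fold changes of the lines differed by 0.05, with a 95% interval of -0.26 to 0.36. In bulk RNA of this kind, fewer cells with a transcript and less of it per cell cannot be told apart. SPRY4-AS1 runs over the FGF1 locus on the opposite strand, and whether counting used the strand is not stated. Its log2 fold change with rapamycin was 0.00 ± 0.24 in A375, against -0.04 ± 0.20 in SK-MEL-28, with a mean of 71.8 counts.

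**Figure D1:**
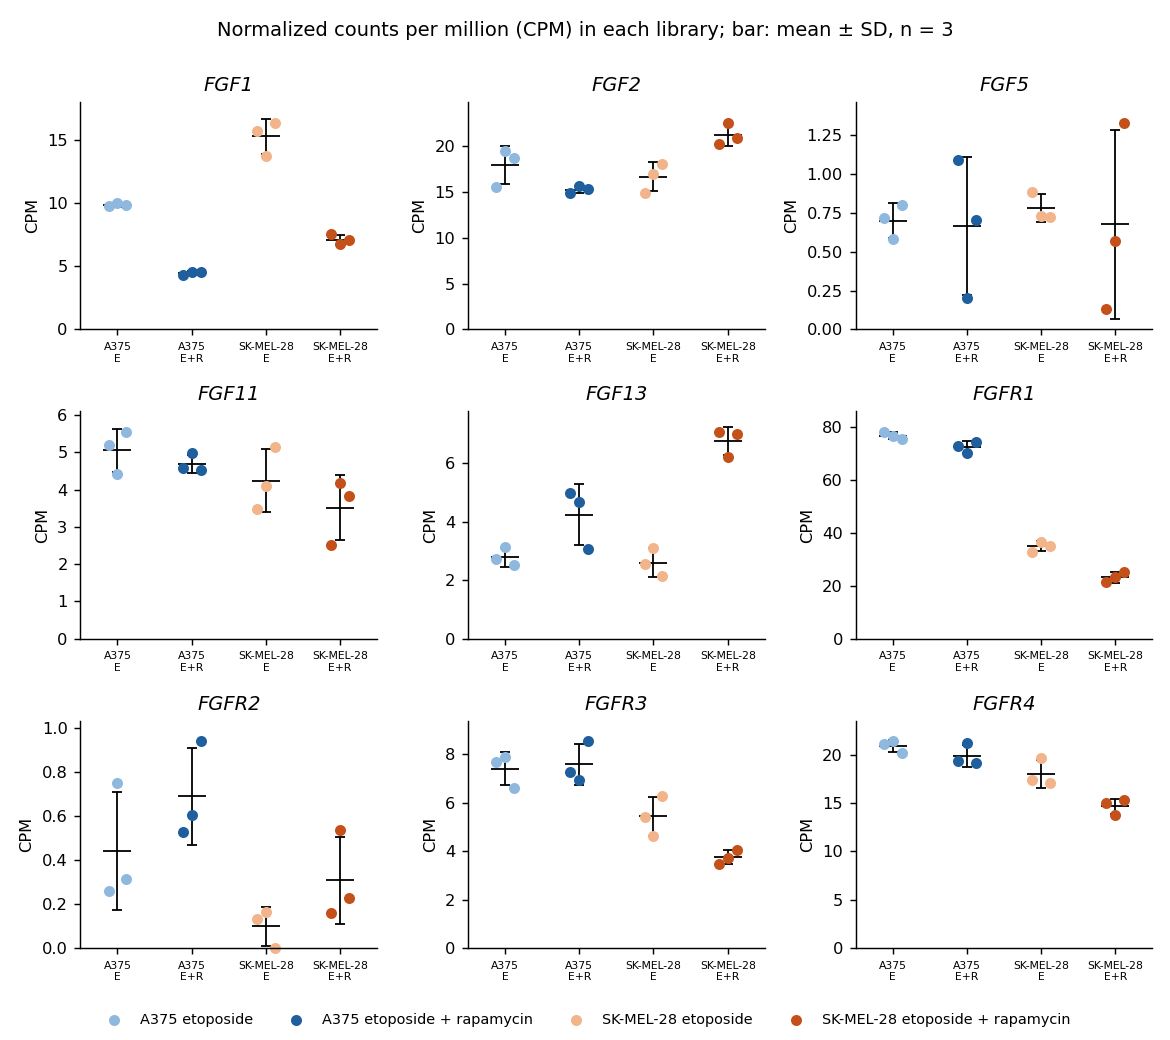
Normalised CPM of the 9 genes in each library (points) for the 4 groups, where E is etoposide and E+R is etoposide + rapamycin; the horizontal line and bar are the mean ± SD of 3 libraries, and each panel has its own axis from 0. FGF1 lay lower with rapamycin in both lines, FGF13 lay higher in SK-MEL-28, and FGFR1 was lower in SK-MEL-28 than in A375 in all libraries.

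FGF2, on chromosome 4 (122826682 to 122898236, plus strand), went in opposite directions in the lines. In A375 it had 475, 568 and 537 counts with etoposide and 422, 466 and 455 with etoposide + rapamycin (log2 fold change -0.23 ± 0.10). In SK-MEL-28 it had 456, 512 and 597 counts with etoposide and 625, 632 and 643 with both drugs (0.34 ± 0.10). In CPM, the groups overlapped in A375. They were apart in SK-MEL-28, where the means were 16.7 ± 1.6 and 21.2 ± 1.2. The gene NUDT6, antisense to FGF2 with a mean of 103.3 counts, had -0.21 ± 0.19 with rapamycin in A375, and in SK-MEL-28 0.44 ± 0.22, and whether the pair share reads was not tested. FGF5, on chromosome 4 (80266639 to 80336680, plus strand), which is known for ending the growth phase of hair, stayed near the lower end of what could be measured. It had 22, 17 and 23 counts with etoposide and 31, 6 and 21 with both drugs in A375, and 27, 22 and 24 against 4, 16 and 41 in SK-MEL-28. These groups overlapped, and the errors of the log2 fold changes (-0.08 ± 0.49 and -0.20 ± 0.56) were larger than the changes.

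FGF13 had the largest log2 fold change on the higher side of the 8 members tested in SK-MEL-28. It lies on chromosome X (138614727 to 139222777, minus strand). In SK-MEL-28 it had 78, 94 and 71 counts with etoposide and 219, 174 and 215 with etoposide + rapamycin, so the groups were separate (log2 fold change 1.37 ± 0.17). In A375 it had 83, 92 and 72 counts with etoposide and 142, 139 and 91 with both drugs. There 1 library with rapamycin lay within the range of etoposide alone, and the log2 fold change was 0.60 ± 0.21. FGF11, on chromosome 17 (7438273 to 7444937, plus strand), had 159, 129 and 159 counts against 130, 148 and 135 in A375, and 106, 124 and 170 against 78, 117 and 118 in SK-MEL-28. Its groups overlapped in both lines (-0.11 ± 0.15 and -0.28 ± 0.21). In the deposited table FGF11 shares a merged locus with CHRNB1, AC113189.4, SPEM1 and AC113189.2, and how reads were divided between these names is not stated.

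Among the 4 receptors of the set, FGFR1 (chromosome 8, 38400215 to 38468834, minus strand) had the most counts. In A375 it had 2390, 2242 and 2169 counts with etoposide and 2076, 2085 and 2211 with etoposide + rapamycin (log2 fold change -0.09 ± 0.05). In SK-MEL-28 it had 1008, 1110 and 1157 counts with etoposide and 660, 649 and 779 with both drugs (-0.59 ± 0.08). The groups did not overlap in CPM in either line, with means of 76.8 ± 1.3 and 72.4 ± 2.2 in A375, while in SK-MEL-28 they were 34.9 ± 1.9 and 23.3 ± 2.0. LETM2, which overlaps FGFR1 on the opposite strand with a mean of 83.7 counts, was also lower in SK-MEL-28 (-0.71 ± 0.18, adjusted p = 0.0162 by edgeR), and had -0.36 ± 0.27 in A375.

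FGFR3 and FGFR4 showed smaller differences, again on the lower side in SK-MEL-28. FGFR3 (chromosome 4, 1793293 to 1808872, plus strand) had 235, 231 and 190 counts against 207, 207 and 254 in A375, and 165, 140 and 207 against 108, 104 and 125 in SK-MEL-28. Its log2 fold change was 0.03 ± 0.13 in A375, where the groups overlapped, and -0.54 ± 0.16 in SK-MEL-28, where they did not. FGFR4 (chromosome 5, 177086905 to 177098144, plus strand) had 645, 626 and 580 counts against 551, 631 and 570 in A375, and 531, 595 and 562 against 464, 386 and 470 in SK-MEL-28. The groups overlapped in A375 (-0.07 ± 0.08) and were separate in SK-MEL-28 (-0.30 ± 0.10). FGFR2 (chromosome 10, 121478332 to 121598458, minus strand) was close to absent, with 8, 22 and 9 counts against 15, 18 and 28 in A375, and 4, 5 and 0 against 5, 15 and 7 in SK-MEL-28. It passed the filter on low counts in A375 (0.64 ± 0.48) but not in SK-MEL-28.

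**Figure D2:**
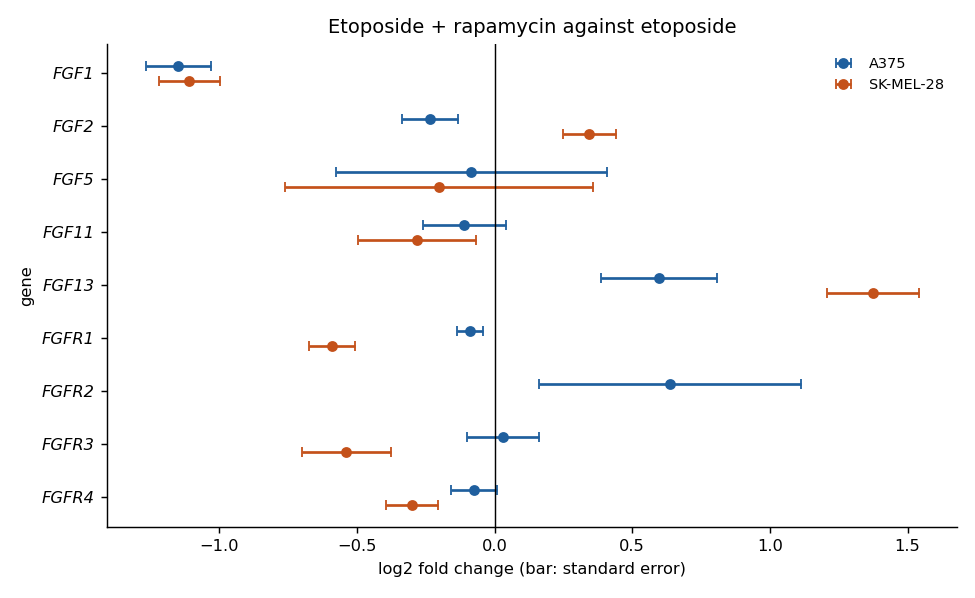
Log2 fold change of each of the 9 genes, etoposide + rapamycin against etoposide, in A375 (blue) and SK-MEL-28 (orange), with bars for the standard error. FGF1 sits at -1.15 and -1.11, FGF2 falls on different sides of 0, and FGFR2 has no point in SK-MEL-28, where it was not tested.

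A call needed a change of more than 1.5-fold, higher or lower, and an adjusted p under 0.05, and nothing is read from such calls for the 9 genes with rapamycin. With rapamycin, 5.89% of the 18844 genes tested in A375 were called, 3.09% higher and 2.80% lower, and 4.99% of 18897 genes in SK-MEL-28, 1.85% higher and 3.14% lower. When each library was left out in turn, the log2 fold change of FGF13 in A375 ran from 0.47 to 0.79, the highest without the third library with both drugs. In SK-MEL-28, that of FGFR1 ran from -0.65 to -0.53 and that of FGFR3 from -0.64 to -0.42. The share of counts from mitochondrial genes moved with rapamycin as well, from 4.15 to 4.50% down to 3.31 to 3.53% in A375 and from 4.66 to 5.06% down to 4.49 to 4.58% in SK-MEL-28. The 8 markers of other cells summed to 26.8 to 31.2 CPM with etoposide and 19.5 to 22.5 with both drugs in A375, and to 34.7 to 40.4 and 22.4 to 26.5 in SK-MEL-28. LUM and KRT14 were the most abundant of them, and the part of either shift in the changes above was not tested.

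Levels of different genes were compared as CPM per kilobase of exon. With etoposide, A375 had most of FGFR1 (4.47 ± 0.07, SD, n = 3) and FGFR4 (4.35 ± 0.13), whose libraries overlapped. FGF2 (2.63), FGF1 (1.98), FGFR3 (1.53) and FGF11 (0.994) followed in that order, each separate from the next, and FGF13 (0.135), FGF5 (0.118) and FGFR2 (0.0235) were far below. With rapamycin, the level of FGF1 in A375 was 0.896 and overlapped that of FGF11 (0.924). SK-MEL-28 had another order. With etoposide, FGFR4 (3.75 ± 0.30) stood above FGF1 (3.07 ± 0.28), FGF2 (2.45 ± 0.24) and FGFR1 (2.03 ± 0.11), without overlap between neighbours. With rapamycin, FGF2 (3.12) and FGFR4 (3.05) overlapped at the top, and FGF1 (1.43) overlapped FGFR1 (1.35) below them. FGFR3 and FGF11 overlapped in this line in both treatments. The lengths are those of all annotated exons of a gene, and the level of FGFR1 moved from 3.01 to 8.34 over the 12 libraries when the longest transcript was used, so the order of the genes rests on that choice. By the longest transcript, FGFR1 (5.62) stood above FGF1 (3.76) and FGF2 (2.45) in SK-MEL-28 with etoposide, and FGF11 (1.96) above FGFR3 (1.72) in A375 with etoposide.

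**Figure D3:**
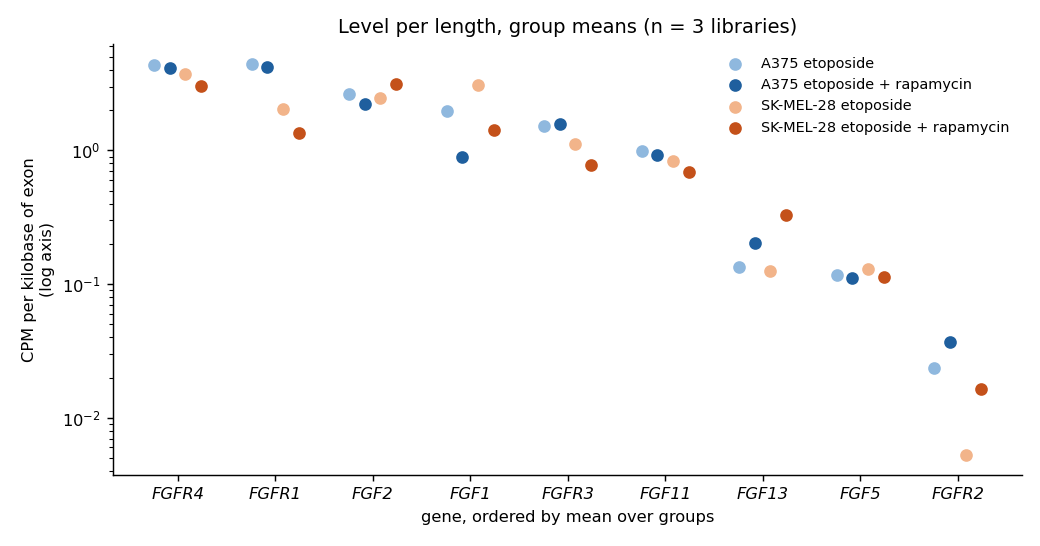
Mean CPM per kilobase of exon (log axis) of the 9 genes in the 4 groups, with 3 libraries behind each point. FGFR1, FGFR4 and FGF2 lie highest in A375 and FGFR4, FGFR1, FGF2 and FGF1 in SK-MEL-28, and FGF13, FGF5 and FGFR2 lie lowest in all 4 groups.

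The lines were compared with each other under each treatment. These 2 comparisons share no library, although each uses libraries of the rapamycin comparisons above. Under etoposide, 2 of the 8 tested genes were called (13% of all 19025 genes tested, with 5.70% higher in SK-MEL-28 and 7.32% lower). FGF1 was 1.54-fold higher in SK-MEL-28 (log2 fold change 0.63 ± 0.10, adjusted p = 0.00046 with the quasi-likelihood test of edgeR, adjusted by Benjamini-Hochberg). FGFR1 was 2.21-fold lower (-1.14 ± 0.06, adjusted p = 1.84e-08). FGFR3 differed by -0.45 ± 0.15 (adjusted p = 0.0335), under the fold threshold. The differences of FGF2 (-0.11, 95% interval -0.34 to 0.13), FGF13 (-0.11, -0.56 to 0.34), FGFR4 (-0.22, -0.40 to -0.03), FGF11 (-0.26, -0.64 to 0.13) and FGF5 (0.15, -0.58 to 0.87) did not pass. Without the third SK-MEL-28 library with etoposide, FGF1 fell under the fold threshold at 0.57.

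Under etoposide + rapamycin, 4 of the 9 genes were called (14.9% of all 18817 genes tested, 6.29% higher in SK-MEL-28 and 8.66% lower). FGF1 was again higher in SK-MEL-28, 1.59-fold (0.67 ± 0.13, adjusted p = 0.00129 by edgeR), with no overlap between the lines. FGF13 was 1.59-fold higher (0.67 ± 0.18, adjusted p = 0.00884). The receptors were on the other side, with FGFR1 3.12-fold lower (-1.64 ± 0.07, adjusted p = 4.3e-10) and FGFR3 2.02-fold lower (-1.02 ± 0.15, adjusted p = 9.83e-05). FGF2 (0.47 ± 0.09, adjusted p = 0.000664) and FGFR4 (-0.44 ± 0.09, adjusted p = 0.00169) passed the test but not the fold threshold. The other genes did not pass, with FGF11 at -0.42 ± 0.19, FGFR2 at -1.18 ± 0.50 and FGF5 at 0.03 ± 0.67. FGFR2 passed the filter on low counts through A375, where it was higher, so no call is read from it. It ran from -1.81 to -0.87 without single libraries, and passed both thresholds only without the second SK-MEL-28 library with both drugs. FGF13 had 0.48 and was not called without the third A375 library with both drugs.

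**Figure D4:**
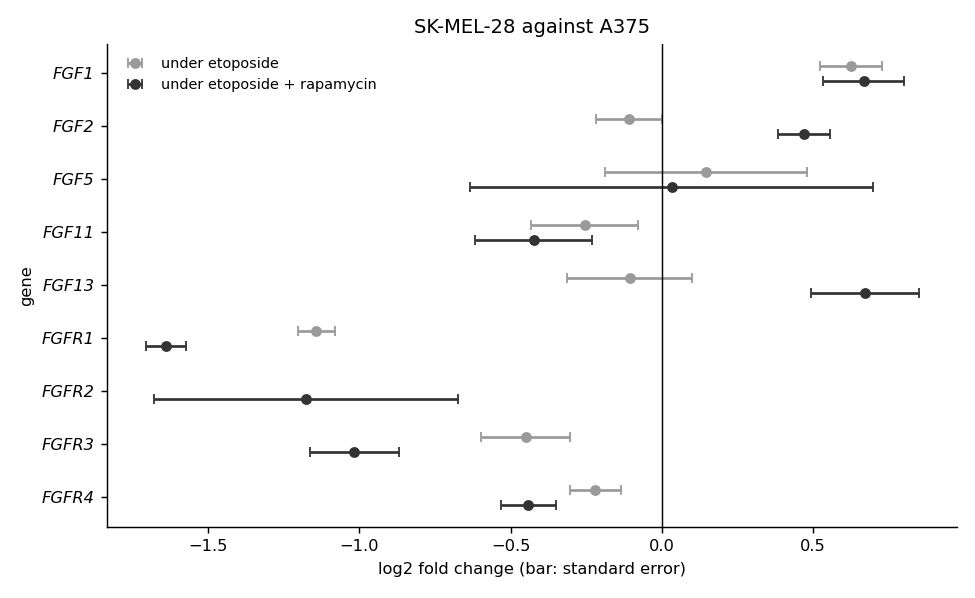
Log2 fold change of each gene, SK-MEL-28 against A375, under etoposide (grey) and under etoposide + rapamycin (black), with bars for the standard error. FGF1 lies above 0 and FGFR1, FGFR3 and FGFR4 lie below 0 under both treatments, and FGFR2 was tested only with rapamycin.

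Whether rapamycin acted unequally in the lines was tested with an interaction term over all 12 libraries, where a positive value is a higher response in SK-MEL-28 and no fold threshold applied. Of 20101 genes tested, 5.62% were called, 2.66% positive and 2.97% negative. The term is made of the same responses that were known when the 9 genes were chosen, so their values are a description with a 95% interval. FGF2 differed by 0.59 (0.29 to 0.88), with values of 0.51 to 0.67 when each of the 12 libraries was left out. FGFR1 differed by -0.49 (-0.68 to -0.31). The differences were 0.78 for FGF13 (0.21 to 1.36), -0.56 for FGFR3 (-0.98 to -0.14) and -0.22 for FGFR4 (-0.47 to 0.03).

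The rest of the family was examined next. The 18 secreted ligands include FGF1, FGF2 and FGF5, and 6 of the 18 were tested in each line. Most of the others were close to 0 in each library, among them FGF4, a factor of early embryos, with 0 counts in all 12. FGF7, a ligand of epithelial FGFR2, had 64, 52 and 35 counts against 77, 82 and 69 in A375 and 31, 24 and 22 against 62, 48 and 60 in SK-MEL-28. In each line, every library with rapamycin was above those without. FGF7 rose with rapamycin in SK-MEL-28 (1.19 ± 0.27, adjusted p = 0.0081 by edgeR), and was not called in A375 (0.60 ± 0.24, adjusted p = 0.0822). Under etoposide it was lower in SK-MEL-28 than in A375 (-1.05 ± 0.31, adjusted p = 0.0198), a call that was lost when any 1 of 4 libraries was left out (-1.23 to -0.87). FGF22 had 28 to 37 counts in A375 and 9 to 24 in SK-MEL-28 under etoposide (-1.28 ± 0.40), and since it passed the filter on low counts through A375, no call is read from it. The median log2 fold change of the tested ligands with rapamycin was -0.43 in A375, against -0.12 in SK-MEL-28. FGF1, FGF2 and FGF5 are among these ligands and were chosen with their responses known, so nothing is read from the medians.

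All 4 FGF homologous factors were tested. FGF12 had 170, 153 and 168 counts with etoposide and 137, 156 and 179 with etoposide + rapamycin in A375, and 270, 303 and 303 against 562, 400 and 569 in SK-MEL-28. It overlapped between treatments in A375 and was higher in each SK-MEL-28 library with rapamycin. FGF12 rose in SK-MEL-28 (0.86 ± 0.12, adjusted p = 0.000258 by edgeR), had -0.05 ± 0.14 in A375, and differed between the lines by 0.92 ± 0.18 (adjusted p = 0.0055). It was also higher in SK-MEL-28 than in A375, by 0.75 ± 0.12 under etoposide (adjusted p = 0.000436) and 1.66 ± 0.13 with rapamycin (adjusted p = 4.71e-07). FGF14, which was outside the rule for naming genes and chosen after its values were seen, had 87, 97 and 78 counts with etoposide and 38, 59 and 31 with both drugs in A375. It fell there by 1.03 on the log2 scale (SE 0.26, adjusted p = 0.01), and had -0.59 ± 0.20 in SK-MEL-28 (adjusted p = 0.055). The 4 factors thus held members on both sides of 0 in each line.

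FGFRL1 is the fifth receptor, which binds ligands and heparan sulfate but has no kinase domain. Its level per kilobase was the highest of the receptors, 59.1 ± 0.5 CPM in A375 and 35.2 ± 1.4 in SK-MEL-28 with etoposide, and 72.1 ± 0.7 and 30.0 ± 0.9 with rapamycin. The groups did not overlap in either line and went in opposite directions. Its changes were within the fold threshold (0.28 ± 0.04 and -0.24 ± 0.05), and their difference was called at -0.51 ± 0.06 (adjusted p = 0.000112 by edgeR). FGFRL1 was lower in SK-MEL-28 than in A375, by 0.75 under etoposide (SE 0.05, adjusted p = 1.07e-07) and by 1.27 with rapamycin (SE 0.04, adjusted p = 9.14e-11). Between the lines, the receptors called were FGFR1 and FGFRL1 under etoposide and FGFR1, FGFR3 and FGFRL1 with rapamycin, all lower in SK-MEL-28.

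Partners of the ligands outside the cell were represented by 13 genes for klothos and heparan sulfate core proteins, of which 11 were tested in each line. With rapamycin, 3 were called in A375 (1 higher, 2 lower) and 2 in SK-MEL-28 (both lower), with medians of -0.02 and -0.23. Over all genes, 5.89% and 4.99% were called. SDC3, a syndecan of nerve and muscle, was called in both. It had 10856, 10329 and 9625 counts against 6297, 6361 and 7106 in A375, and 12307, 12507 and 13336 against 7794, 5653 and 6821 in SK-MEL-28. The groups were far apart, with -0.64 ± 0.05 (adjusted p = 3.07e-06 by edgeR) and -0.86 ± 0.07 (adjusted p = 3.23e-06). HSPG2, which encodes perlecan of the basement membrane, rose in A375 (0.75 ± 0.12, adjusted p = 0.000556), had -0.00 ± 0.07 in SK-MEL-28, and differed between the lines by -0.74 ± 0.16 (adjusted p = 0.0104). Its 3 etoposide libraries in A375 were uneven, at 7612, 8972 and 12537 counts. The third called in A375 was SDC2 (-0.64 ± 0.05, adjusted p = 3.35e-06), and the second in SK-MEL-28 was GPC4 (-0.61 ± 0.13, adjusted p = 0.00544), which was chosen after its values were seen. GPC4 was not called without the third SK-MEL-28 library of either treatment, with values of -0.68 to -0.51 over the omissions. The difference in response was also called for the glypicans GPC1 (-0.63 ± 0.09, adjusted p = 0.000494) and GPC6 (0.50 ± 0.09, adjusted p = 0.00298) and for SDC1 (-0.33 ± 0.09, adjusted p = 0.0328), which lost its call in 9 of 18 alternatives. SDC4, which had the most counts of this list over the 12 libraries, was lower in SK-MEL-28 than in A375 under etoposide (-0.90 ± 0.05, adjusted p = 2.15e-08), and so was SDC2 (-1.12 ± 0.07, adjusted p = 5.76e-08).

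The 15 enzymes that build and trim heparan sulfate were all tested, and none was called with rapamycin in either line by edgeR, with medians of 0.02 and -0.13. At an unadjusted p under 0.05 A375 had 4 and SK-MEL-28 had 9, and DESeq2 called 0 in both. Over all genes, edgeR called 5.89% and 4.99%. EXT2 (a chain polymerase), NDST1 (an N-sulfotransferase) and SULF2 (a sulfatase) had the most counts, and none of the 3 was near the fold threshold. In A375 their log2 fold changes with rapamycin were 0.07 ± 0.04, -0.02 ± 0.06 and -0.29 ± 0.05, and in SK-MEL-28 they were -0.13 ± 0.05, -0.18 ± 0.05 and -0.18 ± 0.06. Between the lines under etoposide, 5 of 15 were called, beside 13% of all genes. SULF1, a sulfatase that removes groups the ligands need, was lower in SK-MEL-28 (-1.37 ± 0.06, adjusted p = 1.57e-09), as was HS3ST3B1 (-0.71 ± 0.16, adjusted p = 0.00421). HS3ST1 (1.51 ± 0.27, adjusted p = 0.000778) and EXT1 (0.61 ± 0.06, adjusted p = 8.18e-06) were higher. EXT1 was under the fold threshold without the third A375 or the second SK-MEL-28 library with etoposide (lowest value 0.58), as was HS3ST3B1 without the latter (-0.57). The response to rapamycin differed between the lines for SULF1 (-0.42 ± 0.09, adjusted p = 0.00887) and EXT2 (-0.19 ± 0.05, adjusted p = 0.0438). EXT2 lost its call in 14 of 18 alternatives, among them library totals, the replicate number as a block and 11 of the 12 omissions of 1 library.

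Of 7 genes for proteins that carry or export FGFs, none was called with rapamycin in A375 by edgeR and 2 were called lower in SK-MEL-28, beside 3.14% of all genes called lower there. In A375, 3 had an unadjusted p under 0.05 and DESeq2 called 0, beside 5.89% of all genes called by edgeR. FGFBP2, listed with the FGF binding proteins and best known from cytotoxic lymphocytes, was the farther of the pair. It had 591 to 666 counts with etoposide and 668 to 746 with both drugs in A375, and 121 to 159 and 58 to 74 in SK-MEL-28. FGFBP2 fell by 1.01 on the log2 scale in SK-MEL-28 (SE 0.19, adjusted p = 0.00266), had 0.20 ± 0.09 in A375, and the difference was called at -1.20 ± 0.18 (adjusted p = 0.00114). Under etoposide it was 2.28 lower on the log2 scale in SK-MEL-28 (-2.28 ± 0.13, adjusted p = 2.82e-08). SYT1, a synaptotagmin in the export complex of FGF1, fell in SK-MEL-28 (-0.68 ± 0.14, adjusted p = 0.00579; under the fold threshold at -0.58 without the first library with etoposide), and was higher there than in A375 under etoposide (0.94 ± 0.17, adjusted p = 0.00103). S100A13, of the same complex, was lower in SK-MEL-28 (-0.97 ± 0.07, adjusted p = 2.98e-07) and had -0.00 ± 0.07 and 0.22 ± 0.05 with rapamycin. S100A13, FIBP and SPHK1 had the most counts. SPHK1, a sphingosine kinase, had -0.28 ± 0.05 in A375 and -0.45 ± 0.08 with rapamycin in SK-MEL-28, both within the fold threshold, while FIBP had 0.18 ± 0.05 in A375 and 0.14 ± 0.08 in SK-MEL-28.

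Inside the cell, all 12 receptor adaptors were tested. FRS3, chosen after its values were seen, was the single gene called with rapamycin (0.68 ± 0.14 in A375, adjusted p = 0.00389 by edgeR, and 0.56 ± 0.18 in SK-MEL-28, adjusted p = 0.0428 and under the fold threshold), beside 3.09% of all genes called higher in A375. SHC1, PTPN11 and GRB2 had the most counts and log2 fold changes between -0.22 and -0.05 in both lines. In SK-MEL-28, and between the lines under either treatment, edgeR and DESeq2 both called 0 adaptors, with 6 at an unadjusted p under 0.05 in each of these comparisons. Over all genes, edgeR called 4.99% with rapamycin in SK-MEL-28, 13% between the lines under etoposide and 14.9% under both drugs.

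Of the 20 feedback inhibitors and targets of the FGF and ERK pathway, 2 were called with rapamycin in A375, against 1 in SK-MEL-28, with medians of 0.02 and 0.09. Over all genes these shares were 5.89% and 4.99%. These 3 were named after their values were seen. SPRY1, an inhibitor of receptor signalling, fell in A375 (-0.70 ± 0.11, adjusted p = 0.000682), and FOSL1, an AP-1 factor, rose there (0.70 ± 0.05, adjusted p = 7.83e-07), with 0.57 ± 0.08 in SK-MEL-28 (adjusted p = 0.000189, under the fold threshold). EGR1, an immediate early gene, rose in SK-MEL-28 (0.84 ± 0.09, adjusted p = 5.05e-05), with 0.45 ± 0.09 in A375 (adjusted p = 0.00194, under the fold threshold). CCND1, DUSP4 and SPRY2 had the most counts. CCND1, which encodes cyclin D1, had -0.13 ± 0.04 in A375 and 0.27 ± 0.04 in SK-MEL-28, and its difference was called at 0.41 ± 0.05 (adjusted p = 0.000137). The same test called the phosphatase gene DUSP5 (-0.39 ± 0.09, adjusted p = 0.0183) and the ETS factor ETV1 (0.31 ± 0.08, adjusted p = 0.0229), which lost their calls in 3 and 7 of 18 alternatives. DUSP4 had -0.16 ± 0.04 and -0.16 ± 0.06, and SPRY2 0.29 ± 0.05 and 0.46 ± 0.06, all within the fold threshold.

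Between the lines under etoposide, 5 of these 20 genes were called, 2 higher and 3 lower, beside 5.70% and 7.32% of all genes. FLRT2, whose product binds FGF receptors, was far lower in SK-MEL-28 (-3.23 ± 0.08, adjusted p = 2.22e-11 by edgeR), and FOSL1 was lower as well (-1.11 ± 0.07, adjusted p = 6.46e-08). FLRT3 (0.69 ± 0.08, adjusted p = 2.59e-05) and ETV5 (0.66 ± 0.05, adjusted p = 6e-07) were higher.

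**Figure D5:**
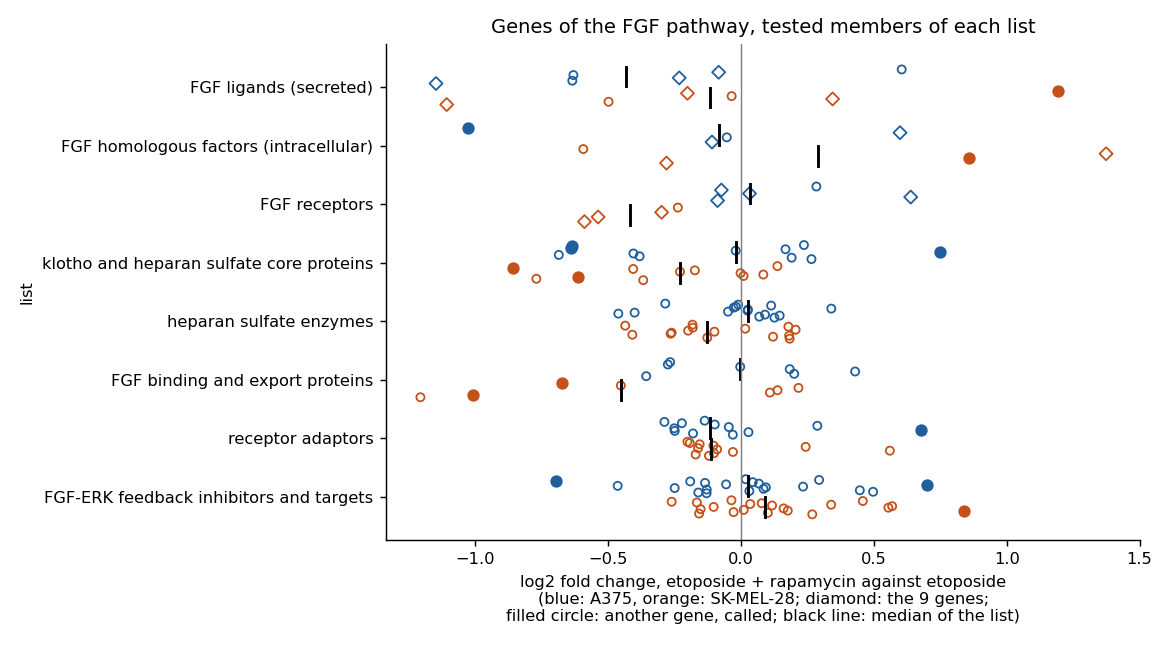
Log2 fold change of the tested genes of 8 lists of the FGF pathway, etoposide + rapamycin against etoposide, in A375 (blue) and SK-MEL-28 (orange), where diamonds are the 9 genes, filled circles are other genes that were called and black lines are the median of the list. Most heparan sulfate enzymes and receptor adaptors lie close to 0, and FGF1, which was chosen for its change, lies at -1.15 and -1.11, and FGF13 and FGF7 in SK-MEL-28 lie at 1.37 and 1.19.

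Genes whose log2 CPM followed that of FGF1 most closely were sought among 12712 genes with a mean of at least 100 counts that were tested with all 12 libraries. The closest were OSMR, a receptor of oncostatin M (Pearson r = 0.990 over 12 libraries), P4HA1, a collagen prolyl hydroxylase (0.989), AC104958.2 (0.988), CYP1A1, a target of the aryl hydrocarbon receptor (0.987), and SERPINA3, a protease inhibitor (0.985). These values are a description, since the libraries share line and treatment and the genes were ranked on them. With rapamycin, OSMR had log2 fold changes of -0.61 (A375) and -0.68 (SK-MEL-28), P4HA1 had -0.55 and -0.57, and SERPINA3 had -1.39 and -1.23. With the mean of each line removed, r was 0.987 for OSMR, 0.991 for P4HA1 and 0.982 for SERPINA3.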

How the data were processed

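RNA-seq of A375 and SK-MEL-28 cells was taken as the authors deposited it, as raw, whole-number counts for each gene in each library, with replicates kept apart. Per the study's methods and the labels, the authors aligned reads to hg38 with HISAT and estimated expression with StringTie; how coverage became counts is not stated. Of 58312 rows, 5 named no gene, with 0.00099% to 0.0053% of a library's counts, and were left out.

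The 9 members, the gene lists and the tests were chosen with earlier results of these data known. Tests used edgeR 4.0.16 in R 4.3.3 (filterByExpr with a minimum count of 10, TMM, glmQLFit and glmQLFTest). P-values were adjusted by Benjamini-Hochberg across every gene in the fit. Each comparison between 2 groups was fitted on its 6 libraries, and the interaction on all 12. Standard errors came from the log2 fold change and F (its absolute value over the root of F), and 95% intervals use the t quantile of the same fit. Positions, exon lengths and overlaps came from GENCODE release 44 (GRCh38), and all 101 list genes were found in the table. A further gene of the lists is not reported here. Likeness to FGF1 used log2 CPM with a prior count of 2.

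Genes were named by a rule: the 9 members; in each list the 3 with the highest mean count, those called in the same direction in both lines with rapamycin, those called in the interaction, and the 2 farthest in each direction among those called between the lines under etoposide; genes overlapping a member; and the 5 genes most like FGF1. The lists held FGF ligands, homologous factors, receptors, klothos and heparan sulfate core proteins, heparan sulfate enzymes, binding and export proteins, adaptors, feedback inhibitors and targets, melanocyte markers and markers of other cells. Alternatives were DESeq2 1.42.0, RLE size factors, library totals, a filter of 1 count in any library, the replicate number as a block, halved counts, one fit of all 12 libraries, another gene length, and each library left out in turn. The scripts were tested on simulated data. Precision is given by the spread between libraries.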

Additional observations from a re-analysis of the deposited data

Results flagged for a closer look

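The response to rapamycin differed between A375 and SK-MEL-28 for 12 genes of the pathway lists, by the interaction test of edgeR at an adjusted p under 0.05. The values of the 9 members are given as a description, with no call read from them, since they were chosen with their responses known. Values are the log2 fold change in SK-MEL-28 minus that in A375. Among ligands and homologous factors they were 0.59 for FGF2 (-0.23 in A375 and 0.34 in SK-MEL-28) and 0.92 for FGF12 (-0.05 and 0.86). Among receptors they were -0.49 for FGFR1 (-0.09 and -0.59) and -0.51 for FGFRL1 (0.28 and -0.24). The members besides FGF2 and FGFR1 had 0.05 (FGF1), -0.11 (FGF5), -0.16 (FGF11), 0.78 (FGF13), 0.98 (FGFR2), -0.56 (FGFR3) and -0.22 (FGFR4). Among heparan sulfate core proteins, SDC1 differed by -0.33, GPC1 by -0.63, GPC6 by 0.50 and HSPG2 by -0.74. Of the heparan sulfate enzymes, EXT2 differed by -0.19 and SULF1 by -0.42. Of the binding and export proteins, FGFBP2 differed by -1.20. Of the feedback inhibitors and targets, DUSP5 differed by -0.39, ETV1 by 0.31 and CCND1 by 0.41. The 12 were called of 71 list genes tested outside the 9 members (16.9%), beside 5.62% of all genes. The lists were also chosen with earlier results of these data known, so nothing is read from this share. In 8 of the 12 the sign was negative, a lower response in SK-MEL-28, as in 596 of the 1130 calls over all genes. The call was lost in 14 of 18 alternatives for EXT2, in 9 for SDC1, in 7 for ETV1 and in 3 for DUSP5.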

How the results depend on the processing

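FGFR1 between the lines kept its call and direction under every alternative run. With rapamycin and in the interaction, counts of calls among the 9 genes rest on responses known when they were chosen and support nothing. In SK-MEL-28 this count was 3, with FGFR1 lost when any 1 of 4 libraries was left out. In A375 it was 1, and 2 with DESeq2, with one fit of all 12 libraries and with halved counts, and 1 to 2 when libraries were left out. Leaving out libraries gave 1 to 2 called genes between the lines under etoposide and 1 to 2 in the interaction, and 594 to 1315 of all genes in the interaction, where DESeq2 called 1792 and the filter of 1 count 658, beside 1130. The cause was not tested. With the longest transcript as length, levels in CPM per kilobase were 2.26 for FGF1, 1.70 for FGF11, 8.34 for FGFR1, 0.055 for FGFR2, 1.40 for FGFR3 and 5.94 for FGFR4, since that length is shorter. Directions that reversed belonged to differences that passed no test. FGFR3 in A375 became -0.013 with library totals. Without single libraries, FGFR3 in A375 ran from -0.061 to 0.091, and FGF5 from -0.62 to 0.35 in A375, from -1.17 to 0.30 in SK-MEL-28, from -0.94 to 0.57 between the lines with rapamycin and from -1.08 to 0.43 in the interaction. FGF13 between the lines under etoposide ran from -0.25 to 0.018, and in the interaction FGF11 ran from -0.30 to 0.031 and FGF1 from -0.029 to 0.10. Library totals moved the higher share of called genes in A375 from 52.5% to 41.5% (468 higher and 659 lower). Deviations from the group mean were little correlated between same-numbered libraries of different groups (r from -0.030 to 0.061, beside -0.043 to 0.040 for other numbers, and best with the own number in 11 of 36 cases). Such values cannot show whether libraries of the same number were cultured or processed together, which was not tested. With the replicate number as a block, 1034 and 897 genes were called with rapamycin in A375 and SK-MEL-28, 2423 and 2755 between the lines, and 1054 in the interaction, and FGF5 between the lines with rapamycin became -0.046. Depth limits FGF5 and FGFR2, whose libraries held 0 to 41 counts, so that differences in them were not detectable unless large.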

Other observations

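Of the melanocyte markers, DCT, an enzyme of pigment synthesis, had 22, 24 and 17 counts with etoposide and 6, 6 and 7 with both drugs in A375. It passed the filter on low counts through the etoposide libraries, so no call is read from it. DESeq2 called 0 of the 7 markers tested in that comparison, and 3 had an unadjusted p under 0.05 by edgeR, beside 5.89% of all genes called by edgeR. In SK-MEL-28 edgeR and DESeq2 called 0, with 2 at an unadjusted p under 0.05, beside 4.99% of all genes called by edgeR. Under etoposide, TYRP1 (1.42 ± 0.33, adjusted p = 0.00544) and DCT (1.29 ± 0.30, adjusted p = 0.00577) were higher in SK-MEL-28 than in A375. MITF had -0.51 ± 0.10 (adjusted p = 0.00248) and -0.50 ± 0.10 (adjusted p = 0.0032) with rapamycin in the lines, both within the fold threshold.

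Among markers of other cells, LUM, a proteoglycan of connective tissue, was called lower with rapamycin in A375 (-0.73 ± 0.16, adjusted p = 0.00502 by edgeR) and in SK-MEL-28 (-0.66 ± 0.11, adjusted p = 0.000806; under the fold threshold at -0.57 without the first library with etoposide). DCN in A375 (-0.63) and PECAM1 in SK-MEL-28 (-0.70) were called lower too, and lost their calls in 3 and 9 of 13 alternatives. The markers called lower were thus 2 of 4 tested in A375 and 2 of 6 in SK-MEL-28, beside 2.80% and 3.14% of all genes. LUM was higher in SK-MEL-28 than in A375 under etoposide (1.81 ± 0.13, adjusted p = 2.56e-07), and DCN (-1.86 ± 0.22, adjusted p = 2.37e-05) and PECAM1 (-1.22 ± 0.19, adjusted p = 0.000251) were lower. In A375, 6 of the 7 tested melanocyte markers were below 0 with rapamycin, with a median of -0.48, beside 9535 of all 18844 genes tested. DCT, which passed the filter on low counts through the etoposide libraries, is among the 6, so nothing is read from this count or median. In the same line S100B went from a mean of 87.0 to 58.5 CPM without overlap (-0.58 ± 0.06, adjusted p = 4.13e-05 by edgeR, within the fold threshold). In SK-MEL-28, 5 of the 7 were below 0, with a median of -0.23, beside 9293 of all 18897 genes tested, and S100B had 98.2 and 87.8 CPM. The response differed between the lines for S100B (0.42 ± 0.11, adjusted p = 0.0354 by edgeR, lost in 11 of 18 alternatives). For DCT the difference was 1.82 ± 0.45, and no call is read from it, since it holds the low counts in A375 described above. The summed level of these markers, most of it SOX10, overlapped between treatments, at 477 to 594 CPM and 399 to 658 in A375 and at 426 to 549 and 294 to 526 in SK-MEL-28.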
